A study of Danio rerio with 12 samples.

Results

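Smooth muscle cells and pericytes, together called mural cells, wrap the endothelial tubes of blood vessels, and 9 genes that serve as their usual markers were followed here in the zebrafish heart. They were taken by symbol from the table of all genes, and 8 of the 9 had a row there: acta2, tagln, myh11a, cnn1b, mylka, lmod1b, pdgfrb and cspg4. No row carried the symbol myocd, the transcriptional co-activator myocardin, and it was not analysed here. The 8 were among 22736 genes of the table and among the 16643 genes with a mean normalized count above 5 that entered the tests.

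Bulk RNA sequencing had been run on 12 libraries, 2 for each of 6 conditions. Adult AB fish of 3 to 12 months, either myd88+/+ or myd88-/- (allele hu3568, a loss of function of the adaptor protein of Toll-like and interleukin-1 receptors), gave untouched ventricles (UT) or injured tissue taken 1 or 24 hours post cryoinjury (hpci). Each library pooled 3 ventricles or 3 pieces of injured tissue, so a replicate is a pool of hearts. UT libraries hold whole ventricles and the others only the injured tissue, so injury and the part of the heart sampled cannot be told apart in any comparison with UT. The values are counts scaled by the authors with a size factor for each library and rounded, called normalized counts below.

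A mature vascular smooth muscle cell contracts when calcium and calmodulin activate myosin light chain kinase, which phosphorylates the light chains of smooth muscle myosin so that it can pull on smooth muscle actin. Serum response factor and its co-activators, myocardin among them, switch on most genes of this apparatus, and injured or cultured smooth muscle cells can lose it. Pericytes sit on capillaries and depend on platelet-derived growth factor B acting on its receptor PDGFRβ. In the zebrafish heart, mural cells cover the coronary vessels, and smooth muscle also forms most of the wall of the bulbus arteriosus, the outflow chamber next to the ventricle. Several of these genes are also used by myofibroblasts and fibroblasts, so none of them marks mural cells alone.

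limma was fitted to log2(normalized count + 1) of all tested genes over the 12 libraries, and a change was called where it exceeded 1.5-fold and its p, adjusted by the Benjamini-Hochberg method, was below 0.05. With 2 libraries in each condition, no exact permutation test between a pair of conditions can reach a two-sided p below 0.33, and p-values here rest on a spread estimated over all 6 conditions. Every adjusted p below comes from that limma fit and is adjusted over all genes tested. Fold changes are on the log2 scale and are written with their standard error (SE).

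A pair of libraries stood apart. Replicate 2 of myd88+/+ at 1 hpci held fast skeletal muscle transcripts, with 1815 normalized counts of myhz2 and 932 of mylpfa, against 0 to 31 and 0 to 40 in the other 11 libraries. It also held more elnb and fbln5, elastic fibre genes listed for the bulbus arteriosus. These had 74 and 136 normalized counts there, against 5 to 12 and 35 to 43 in the other libraries at 1 hpci. Replicate 1 of myd88+/+ at 24 hpci was shallow, with 1 read worth about 2.54 normalized counts and at most 1.06 in any other library. The 8 members had a median SD between replicates of 0.49 on the log2 scale in myd88+/+ at 1 hpci and 0.41 in myd88+/+ at 24 hpci, against 0.08 to 0.17 in the other 4 conditions. Transcripts of myd88 itself were still present in myd88-/- hearts (32 and 37 in UT, 199 and 210 at 1 hpci, 43 and 66 at 24 hpci) beside 63 and 56, 200 and 171, and 79 and 113 in myd88+/+ hearts, so the level of its mRNA does not check the genotype.

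The 8 genes did not move as one group. At 1 hpci myh11a and mylka stood above the UT level, called only in myd88-/-, and cnn1b and cspg4 below it, called only in myd88+/+. By 24 hpci acta2 was below the UT level in both genotypes, and myh11a and mylka had come down again from their 1 hpci level. The genotypes differed past the threshold only for cnn1b in UT ventricles.

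**Figure D1:**
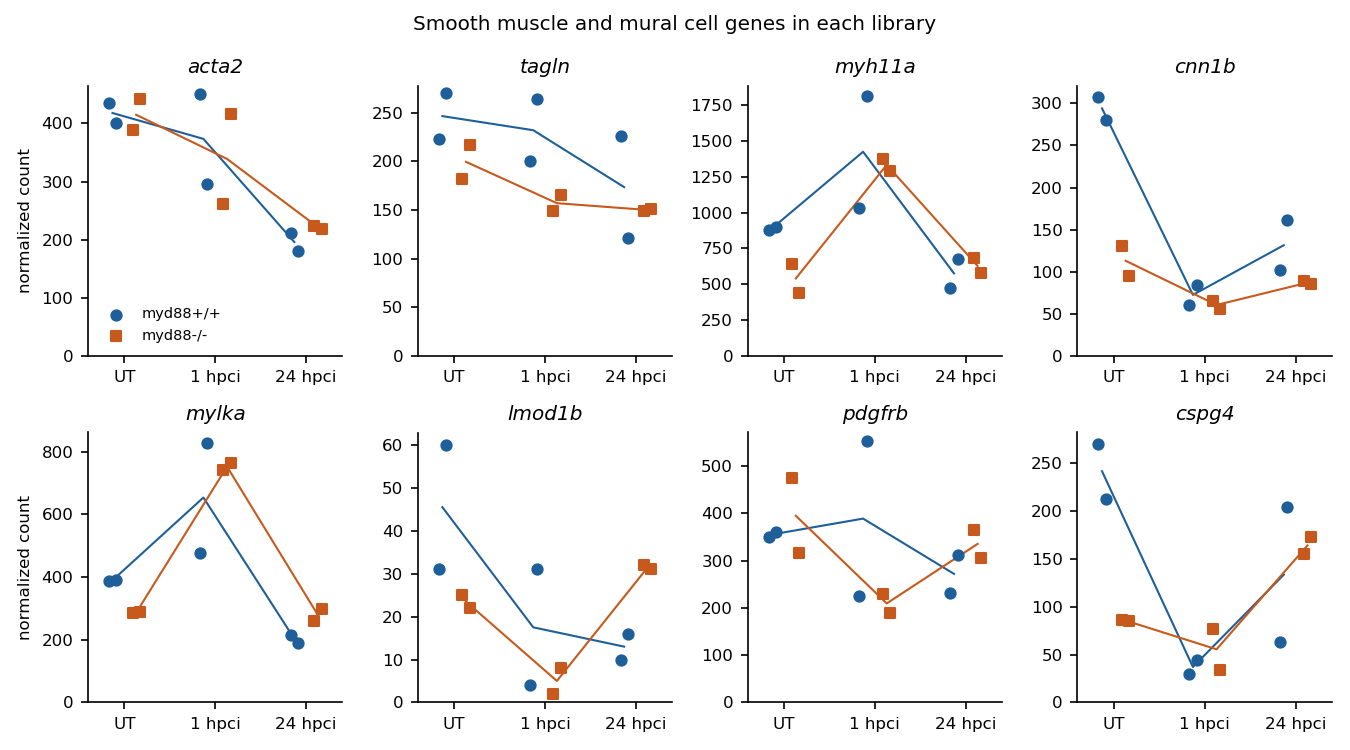
Normalized counts (y axes, each from 0) of the 8 genes in each of the 12 libraries at the 3 states, with myd88+/+ as blue circles and myd88-/- as orange squares. Lines join the means of the 2 libraries. acta2 fell to between 181 and 224 at 24 hpci from between 388 and 442 in UT, myh11a and mylka peaked at 1 hpci, and cnn1b and cspg4 were lowest at 1 hpci.

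acta2 encodes smooth muscle alpha-actin, the actin isoform of smooth muscle cells and myofibroblasts, on chromosome 12 (17100021 to 17116481, forward strand, danRer11, ENSDARG00000045180). Replicates 1 and 2 of myd88+/+ gave 436 and 400 normalized counts for UT, 451 and 296 for 1 hpci, and 211 and 181 for 24 hpci. In myd88-/- hearts the values were 388 and 442, 262 and 416, and 224 and 219. All 4 libraries at 24 hpci lay below all 4 UT and all 4 1 hpci libraries. Relative to UT, acta2 at 24 hpci fell by 1.09 ± 0.25 (SE) on the log2 scale in myd88+/+ (adjusted p = 0.0066) and by 0.90 ± 0.25 in myd88-/- (adjusted p = 0.021). At 1 hpci the changes from UT were -0.19 ± 0.25 and -0.33 ± 0.25, neither called. Relative to 1 hpci, acta2 at 24 hpci fell by 0.90 ± 0.25 in myd88+/+ (adjusted p = 0.018), and the change in myd88-/- was -0.57 ± 0.25 (adjusted p = 0.10). In bulk tissue, fewer cells that express a gene and less RNA per cell cannot be told apart, and this holds for every gene here. The call of acta2 at 24 hpci against UT held in myd88+/+ under every alternative tried and was lost in myd88-/- when any 1 of the 4 libraries was left out (adjusted p from 0.065 to 0.12). The call against 1 hpci in myd88+/+ was lost without replicate 1 of 1 hpci (-0.60, adjusted p = 0.12) or replicate 2 of 24 hpci (-0.79, adjusted p = 0.058) and with the compared groups alone (adjusted p = 0.12), and the change in myd88-/- was called without replicate 1 of 1 hpci (-0.91, adjusted p = 0.037). Coding sequences of actin genes are near-identical and multi-mapping reads were removed by the authors, so reads shared with other actins are missing from these values.

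tagln encodes transgelin, the actin-bundling protein SM22 of early and mature smooth muscle, on chromosome 15 (543744 to 551181, reverse strand, ENSDARG00000045408). Its values were 223 and 270 in UT, 200 and 264 at 1 hpci and 226 and 121 at 24 hpci in myd88+/+ hearts, and 182 and 217, 149 and 165, and 149 and 151 in myd88-/- hearts. The states overlapped, and tagln was called in none of the comparisons. The largest change was -0.57 ± 0.28 (SE) at 24 hpci against UT in myd88+/+, with a 95% interval from -1.18 to 0.05. The high value at 24 hpci, 226, belongs to the shallow library, without which the change from UT was -1.01 (adjusted p = 0.011) and that from 1 hpci was -0.92 (adjusted p = 0.017), both past the threshold.

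myh11a encodes the smooth muscle myosin heavy chain, the motor of contraction, on chromosome 6 (8499865 to 8580858, reverse strand, ENSDARG00000009782). Its normalized counts were 881 and 901 in UT, 1034 and 1814 at 1 hpci and 472 and 679 at 24 hpci in myd88+/+ hearts. In myd88-/- hearts they were 639 and 442, 1376 and 1289, and 680 and 575. All 4 libraries at 1 hpci were above all 4 UT libraries and above all 4 libraries at 24 hpci. myh11a rose at 1 hpci in myd88-/- (1.32 ± 0.28 (SE), adjusted p = 0.015), and the change in myd88+/+ was 0.62 ± 0.28 (adjusted p = 0.21). From 1 to 24 hpci it fell by 1.27 ± 0.28 in myd88+/+ (adjusted p = 0.0061) and by 1.09 ± 0.28 in myd88-/- (adjusted p = 0.013). The changes from UT to 24 hpci were -0.65 ± 0.28 in myd88+/+ and 0.23 ± 0.28 in myd88-/-, neither called. The highest value, 1814, came from the library with skeletal muscle transcripts. Without both libraries that stood apart, the changes in myd88+/+ were 0.21 at 1 hpci against UT and -0.61 from 1 to 24 hpci (adjusted p = 0.074), while the myd88-/- libraries at 1 hpci held 0 to 1 normalized counts of myhz2 and 2 to 11 of mylpfa. The myd88-/- calls were lost when single libraries were left out, at 1 hpci against UT without replicate 2 of UT or either replicate of 1 hpci (adjusted p from 0.071 to 0.14) and from 1 to 24 hpci without either replicate of 1 hpci or replicate 2 of 24 hpci (adjusted p from 0.054 to 0.095). Quantile normalization ended both, with 1.09 (adjusted p = 0.064) and -0.66 (adjusted p = 0.15), and the compared groups alone ended the call from 1 to 24 hpci in myd88+/+ (adjusted p = 0.086). Without replicate 2 of 24 hpci, the change from UT to 24 hpci in myd88+/+ was -0.92 and rested on the shallow library.

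mylka encodes a myosin light chain kinase, the enzyme that starts smooth muscle contraction, on chromosome 9 (4024250 to 4075620, reverse strand, ENSDARG00000034801). It had 387 and 392 normalized counts in UT, 478 and 829 at 1 hpci and 216 and 190 at 24 hpci in myd88+/+ hearts, and 284 and 288, 740 and 764, and 260 and 297 in myd88-/- hearts. The pattern was that of myh11a, with all 4 libraries at 1 hpci above all others. mylka rose at 1 hpci in myd88-/- (1.39 ± 0.23 (SE), adjusted p = 0.0043), and in myd88+/+ the change was 0.69 ± 0.23 (adjusted p = 0.090). From 1 to 24 hpci it fell by 1.63 ± 0.23 in myd88+/+ (adjusted p = 0.00057) and by 1.43 ± 0.23 in myd88-/- (adjusted p = 0.0011). At 24 hpci it was below the UT level in myd88+/+ (-0.94 ± 0.23, adjusted p = 0.0089), and the change in myd88-/- was -0.04 ± 0.23. The rise in myd88-/- and both falls from 1 to 24 hpci kept their calls under every alternative tried. The value of 829 again belongs to the library with skeletal muscle transcripts: the change at 1 hpci in myd88+/+ was 0.29 (adjusted p = 0.15) without both libraries that stood apart, and 1.09 (adjusted p = 0.0075) without replicate 1 of that condition. The call at 24 hpci against UT in myd88+/+ was lost without replicate 2 of UT (-0.93, adjusted p = 0.054).

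cnn1b encodes a calponin, an actin-binding protein of mature smooth muscle that restrains myosin, on chromosome 3 (14463941 to 14486959, forward strand, ENSDARG00000102398). Its normalized counts in myd88+/+ hearts were 308 and 280 in UT, 61 and 84 at 1 hpci and 102 and 161 at 24 hpci. In myd88-/- hearts they were 131 and 95, 65 and 56, and 89 and 85. All 4 libraries at 1 hpci were below all 4 UT libraries and below all 4 libraries at 24 hpci. In myd88+/+, cnn1b fell by 2.02 ± 0.28 (SE) at 1 hpci (adjusted p = 0.0026), rose by 0.83 ± 0.28 from 1 to 24 hpci (adjusted p = 0.039) and remained 1.19 ± 0.28 below UT (log2 fold change -1.19, adjusted p = 0.0070). The corresponding changes in myd88-/- were -0.88 ± 0.28 (adjusted p = 0.071), 0.52 ± 0.28 and -0.36 ± 0.28, none of them called. The rise from 1 to 24 hpci lost its call without replicate 1 of 1 hpci (0.60, adjusted p = 0.18) or replicate 2 of 24 hpci (0.50, adjusted p = 0.19), and with TMM factors (adjusted p = 0.0501), a replicate block (adjusted p = 0.053), no variance trend (adjusted p = 0.053) or the compared groups alone (adjusted p = 0.22). The call at 24 hpci against UT was lost without replicate 1 of UT (-1.12). The fall at 1 hpci lost its call with the compared groups alone (adjusted p = 0.051), a setting that called 0 of all genes tested there. Without both libraries that stood apart, the 3 changes in myd88+/+ were -2.25, 1.39 and -0.86, all called.

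lmod1b encodes a leiomodin, which nucleates actin filaments in smooth muscle, on chromosome 11 (24889170 to 24894907, forward strand, ENSDARG00000077261), and had the fewest normalized counts of the 8 genes. Its values were 31 and 60 in UT, 4 and 31 at 1 hpci and 10 and 16 at 24 hpci in myd88+/+ hearts, and 25 and 22, 2 and 8, and 32 and 31 in myd88-/- hearts. In the 11 deeper libraries 3 reads are worth at most 3.19 normalized counts and in the shallow library 7.61, so the values of 2, 4 and 10 stand for a few reads. lmod1b rose from 1 to 24 hpci in myd88-/- (2.64 ± 0.81 (SE), adjusted p = 0.027), and both libraries at 24 hpci were above both at 1 hpci. The size of that change depends on the pseudocount, from 2.80 with 0.5 to 1.94 with 5, and the call was lost without replicate 1 of 1 hpci (1.85, adjusted p = 0.19) or either replicate of 24 hpci (adjusted p = 0.096 and 0.11). The changes from UT to 1 hpci were -1.80 ± 0.81 in myd88+/+ and -2.23 ± 0.81 in myd88-/-, neither called. The value of 31 at 1 hpci in myd88+/+ came from the library with skeletal muscle transcripts, and without that library the change was -3.14 (adjusted p = 0.034).

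pdgfrb encodes PDGFRβ, the receptor through which platelet-derived growth factor recruits mural cells, on chromosome 14 (3186485 to 3268155, reverse strand, ENSDARG00000100897). Its normalized counts were 350 and 361 in UT, 225 and 553 at 1 hpci and 231 and 313 at 24 hpci in myd88+/+ hearts, and 474 and 316, 230 and 189, and 365 and 306 in myd88-/- hearts. The replicates at 1 hpci in myd88+/+ differed 2.46-fold, with the higher value in the library with skeletal muscle transcripts. pdgfrb was called in none of the comparisons. The change from UT to 1 hpci was -0.01 in myd88+/+ (95% interval -0.81 to 0.79) and -0.89 in myd88-/- (95% interval -1.69 to -0.09, adjusted p = 0.15). Which replicate of myd88+/+ at 1 hpci was left out set the direction in that genotype, from -0.66 without replicate 2 to 0.64 without replicate 1. From 1 to 24 hpci the changes were -0.39 ± 0.36 (SE) in myd88+/+ (adjusted p = 0.43) and 0.68 ± 0.36 in myd88-/- (adjusted p = 0.17). Without replicate 1 of 1 hpci, that in myd88+/+ was -1.04 and rested on the library with skeletal muscle transcripts. With the compared groups alone, that in myd88-/- was called (adjusted p = 0.033).

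cspg4 encodes the proteoglycan NG2 of pericyte membranes, a co-receptor for growth factors, on chromosome 25 (6507141 to 6629281, reverse strand, ENSDARG00000078227). It had 270 and 213 normalized counts in UT, 30 and 44 at 1 hpci and 63 and 204 at 24 hpci in myd88+/+ hearts. In myd88-/- hearts it had 86 and 85, 77 and 34, and 155 and 173. All 4 libraries at 1 hpci were below all 4 UT libraries. In myd88+/+, cspg4 fell by 2.69 ± 0.50 (SE) at 1 hpci (adjusted p = 0.011) and rose by 1.62 ± 0.50 from 1 to 24 hpci (adjusted p = 0.029). In myd88-/-, it rose by 1.66 ± 0.50 from 1 to 24 hpci (adjusted p = 0.026), while the change from UT to 1 hpci was -0.73 ± 0.50 (adjusted p = 0.41). At 24 hpci against UT the changes were -1.07 ± 0.50 in myd88+/+ and 0.93 ± 0.50 in myd88-/-, neither called. The low value at 24 hpci, 63, is that of the shallow library. The fall at 1 hpci lost its call without either replicate of UT (-2.52 and -2.86). With the compared groups alone it was lost too (adjusted p = 0.051), a setting that called 0 of all genes tested there. The rise from 1 to 24 hpci lost it in myd88+/+ without replicate 1 of 1 hpci (1.35, adjusted p = 0.14) or replicate 2 of 24 hpci (0.78, adjusted p = 0.18), with no variance trend (adjusted p = 0.053) or with the compared groups alone (adjusted p = 0.14), and in myd88-/- without replicate 2 of 1 hpci (1.08, adjusted p = 0.20) or either replicate of 24 hpci (adjusted p = 0.078 and 0.13). Without replicate 2 of 24 hpci, the change from UT in myd88+/+ was -1.91 and rested on the shallow library. With the compared groups alone the change of 0.93 in myd88-/- was called (adjusted p = 0.012). Without both libraries that stood apart, the changes in myd88+/+ were -2.96 at 1 hpci, -0.23 at 24 hpci against UT and 2.73 from 1 to 24 hpci.

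**Figure D2:**
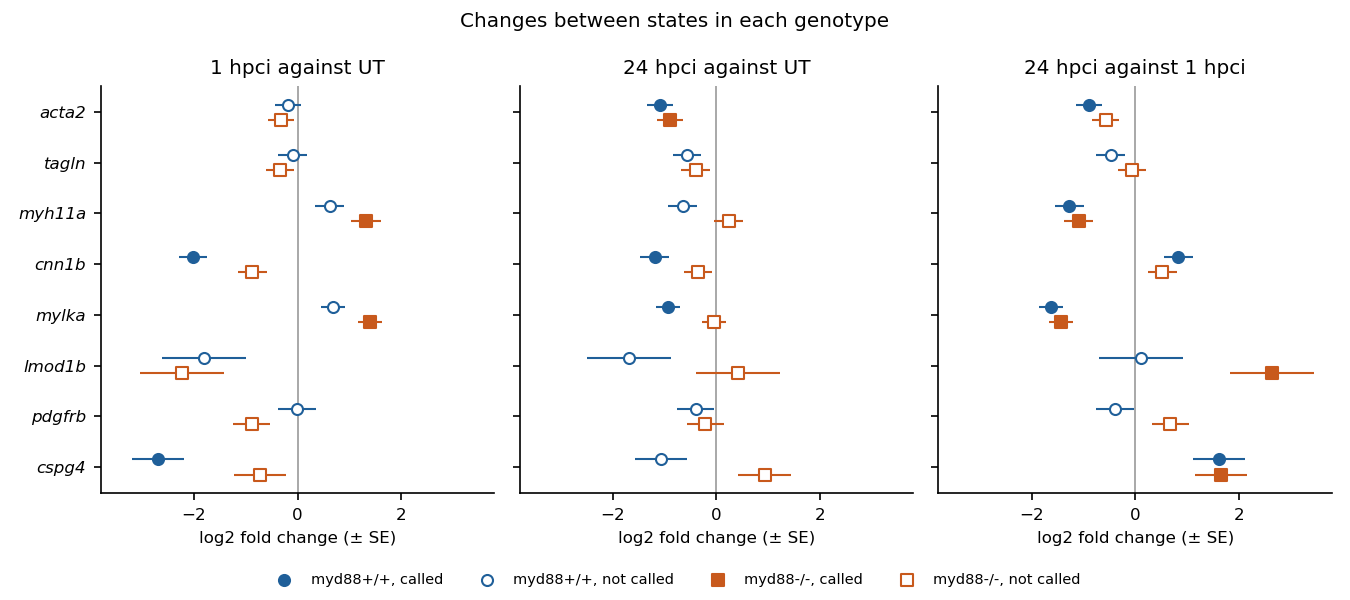
Log2 fold changes (x axes, points with bars of 1 SE) of the 8 genes between states in myd88+/+ (blue circles) and myd88-/- (orange squares), filled where called by limma. In the panel of 1 hpci against UT, cnn1b and cspg4 are filled to the left in myd88+/+ and myh11a and mylka to the right in myd88-/-, and in the panel of 24 hpci against UT, acta2 is filled to the left in both genotypes.

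Counted over the 8 genes, 2 were called lower and 0 higher at 1 hpci against UT in myd88+/+, where 3.73% of all genes tested were called lower and 5.01% higher. In myd88-/- 0 were called lower and 2 higher, beside 4.55% and 5.90% of all genes. At 24 hpci against UT, 3 of 8 were called lower and 0 higher in myd88+/+ (20.9% and 19.0% of all genes), and all 8 fold changes were below 0 with a median of -1.01 against -0.01 over all genes. In myd88-/- 1 of 8 was called lower and 0 higher (14.5% and 15.6% of all genes), with a median of -0.13. From 1 to 24 hpci, 3 were called lower and 2 higher in myd88+/+ (18.0% and 16.9% of all genes) and 2 lower and 2 higher in myd88-/- (16.3% and 18.1%).

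With both genotypes together, the 4 libraries at 1 hpci were all below the 4 UT libraries for cnn1b and cspg4 and all above for myh11a and mylka, as they were for 10.6% and 12.7% of all genes tested. At 24 hpci against UT only acta2 of the 8 separated, downward, as 22.3% of all genes did downward and 23.9% upward. At 24 against 1 hpci acta2, myh11a and mylka were all below and cnn1b all above, against 19.9% and 22.0% of all genes.

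The comparison of the genotypes asks whether loss of MyD88 changes these genes in the untouched ventricle or in the injured tissue. In UT ventricles, 1 of 8 was called: cnn1b was lower in myd88-/- (131 and 95) than in myd88+/+ (308 and 280), with a log2 fold change of -1.39 ± 0.28 (SE) and an adjusted p of 0.034, where 2.08% of all genes were called in either direction. cspg4 had the same order without overlap, 86 and 85 against 270 and 213, and a change of -1.48 ± 0.50 (adjusted p = 0.17). myh11a, at 639 and 442 against 881 and 901, had -0.74 ± 0.28 (adjusted p = 0.22). These 3 were the members with an unadjusted p below 0.05 by limma, beside 16.3% of all genes. Changes of the other 5 ran from -0.85 for lmod1b to 0.12 for pdgfrb. Of the 8 changes 7 were below 0, with a median of -0.59 against -0.02 over all genes. Values of tagln, myh11a, mylka and lmod1b were also lower in myd88-/- without overlap. The share of all genes with that order was not counted. The call of cnn1b was lost when any 1 of the 4 UT libraries was left out, where calls over all genes were also fewer. It was also lost with a replicate block (adjusted p = 0.056), no variance trend (adjusted p = 0.059) or the compared groups alone (adjusted p = 0.0503). Over all genes these 3 settings called 218, 206 and 412, against 347 in the main fit. With the compared groups alone cspg4 passed instead (adjusted p = 0.040).

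At 1 hpci limma called 0 of the 8 between the genotypes, beside 0.120% of all genes. It gave 0 of them an unadjusted p below 0.05, beside 8.84% of all genes. The changes ran from -1.28 for lmod1b to 0.48 for cspg4, and the intervals leave room for differences of more than 1 log2 unit for tagln, pdgfrb, cspg4 and lmod1b. At 24 hpci limma again called 0 of 8, beside 0.0300% of all genes, and gave 0 an unadjusted p below 0.05, beside 5.13% of all genes. There the changes ran from -0.55 for cnn1b to 1.25 for lmod1b, and that of acta2 was 0.18 with a 95% interval from -0.38 to 0.74. The intervals leave room for differences of more than 1 log2 unit for cnn1b, pdgfrb, cspg4 and lmod1b. pdgfrb at 1 hpci had -0.76 (95% interval -1.56 to 0.04) and passed the threshold without replicate 1 of myd88+/+ (-1.40, adjusted p = 0.0497), so that the comparison then rested on the library with skeletal muscle transcripts.

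**Figure D3:**
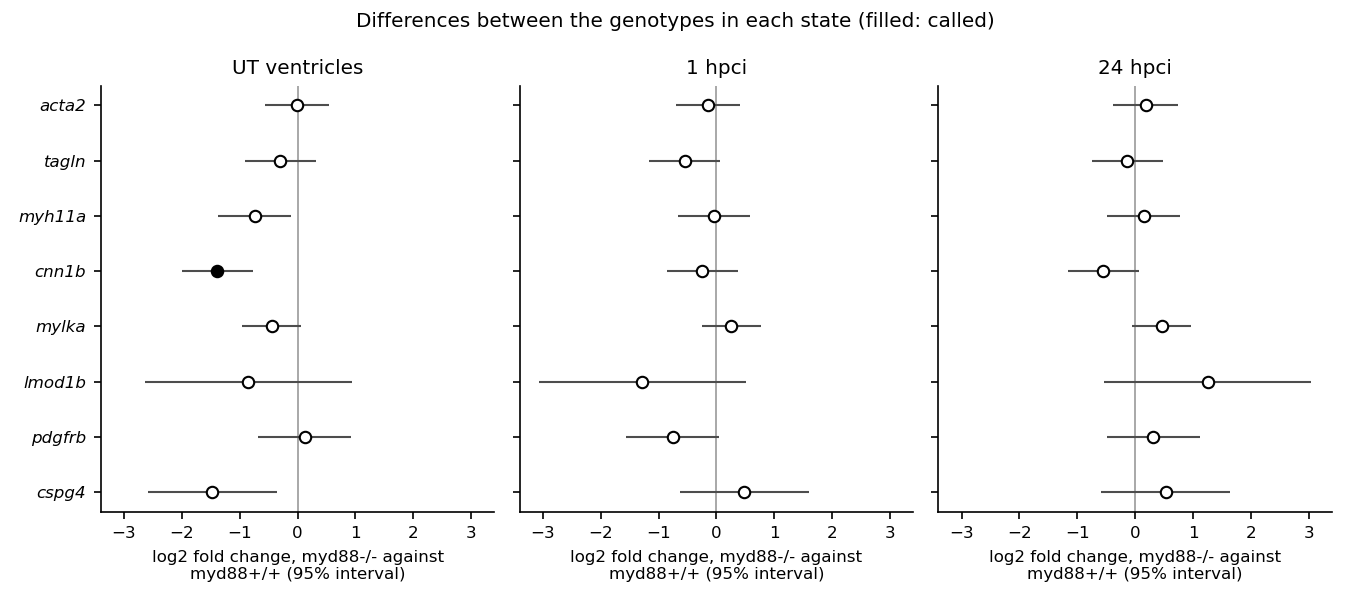
Log2 fold changes of myd88-/- against myd88+/+ (x axes) with 95% intervals for the 8 genes in UT ventricles, at 1 hpci and at 24 hpci, filled where called by limma. Only cnn1b in UT ventricles is filled, at -1.39, and the widest intervals belong to lmod1b.

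Whether the genotypes differed in how far a gene moved between states was tested as an interaction, which uses all 8 libraries of the states concerned. For the change from UT to 1 hpci limma called 0 of 8, beside 0.138% of all genes. It gave 2 an unadjusted p below 0.05, beside 8.56% of all genes. These were cnn1b, whose change was 1.15 ± 0.39 (SE) higher in myd88-/- (adjusted p = 0.40), and cspg4, with 1.96 ± 0.71 (adjusted p = 0.44). Both had lower UT values in myd88-/- and overlapping values at 1 hpci. For mylka the difference was 0.70 ± 0.32 (adjusted p = 0.59), and it was called at 1.097 (adjusted p = 0.049) without both libraries that stood apart.

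For the change from UT to 24 hpci limma called 0 of 8, beside 0.0481% of all genes. It gave 3 an unadjusted p below 0.05, beside 8.38% of all genes. The differences of all 8 were above 0, from 0.16 to 2.10 with a median of 0.86 against 0.01 over all genes. Between the genotypes, the median change of the 8 was -0.59 in UT and 0.25 at 24 hpci, against -0.02 and 0.04 over all genes. The interaction differences were 0.89 ± 0.40 for myh11a, 0.90 ± 0.32 for mylka, 2.002 ± 0.71 for cspg4 and 2.10 ± 1.14 for lmod1b (SE, adjusted p from 0.49 to 0.66). Without replicate 2 of myd88+/+ at 24 hpci, which left that condition to the shallow library, the difference of cspg4 was 2.84. Without replicate 1 it was 1.16. All 8 interaction differences share the same 8 libraries and the same UT values, so their common sign is 1 observation on these libraries. For the change from 1 to 24 hpci 0 of 8 were called by limma, beside 0.0180% of all genes. An unadjusted p below 0.05 was found for 1, lmod1b with 2.53 ± 1.14 (SE, adjusted p = 0.80), beside 5.95% of all genes.

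Related genes were followed in 4 lists. Of 21 tested genes of the contractile apparatus and its attachments, several of which cardiomyocytes also use, 7 were called lower and 0 higher at 24 hpci against UT in myd88+/+ and 5 lower and 1 higher in myd88-/-, with list medians of -0.28 and -0.36 against -0.01 over all genes in each. Of all genes tested, 20.9% were called lower and 19.0% higher in that comparison in myd88+/+, and 14.5% and 15.6% in myd88-/-. smtnl1, a smoothelin-like protein, had 158 and 136 normalized counts in myd88+/+ UT, 537 and 372 at 1 hpci and 5 and 23 at 24 hpci, and 174 and 162, 173 and 150, and 13 and 15 in myd88-/-. At 24 hpci against UT, smtnl1 fell by 3.62 ± 0.50 (SE) in myd88+/+ (adjusted p = 0.00045), and it fell by 3.50 ± 0.50 in myd88-/- (adjusted p = 0.00083). The value of 5 in myd88+/+ is from the shallow library and stands for a few reads. smtnb, a smoothelin, went from 1229 and 987 at 1 hpci to 386 and 386 at 24 hpci in myd88+/+ and from 1105 and 1005 to 477 and 334 in myd88-/-, with log2 fold changes of -1.51 ± 0.20 and -1.40 ± 0.20. vcla, a vinculin that links actin to adhesion sites, fell at 1 hpci in myd88+/+ from 665 and 646 to 183 and 142 (-2.02 ± 0.44, adjusted p = 0.021).

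Of 15 tested pericyte genes, 5 were called lower and 1 higher at 24 hpci against UT in myd88+/+ and 5 lower and 2 higher in myd88-/-, with medians of -0.64 and -0.77, beside the same shares of all genes (20.9% and 19.0%, 14.5% and 15.6%). Those that fell included abcc9 in both genotypes and kcnj8 in myd88+/+, which encode the subunits of the ATP-sensitive potassium channel of mural cells. abcc9, the sulfonylurea receptor, had 1766 and 1832 normalized counts in myd88+/+ UT, 1138 and 1220 at 1 hpci and 228 and 271 at 24 hpci, and 1516 and 1166, 1648 and 1103, and 372 and 147 in myd88-/-. Its log2 fold changes at 24 hpci against UT were -2.85 ± 0.36 (SE) and -2.50 ± 0.36, and cardiomyocytes express it too. kcnj8, the pore subunit, went from 54 and 53 to 5 and 8 in myd88+/+ (-2.89 ± 0.41, adjusted p = 0.00054), and had 34 and 27 in UT and 15 and 15 at 24 hpci in myd88-/- (-0.97 ± 0.41, adjusted p = 0.10). The value of 5 is from the shallow library, where 3 reads are worth 7.61 normalized counts. rgs5a, a regulator of G protein signalling and pericyte marker, went from 416 and 433 in UT to 38 and 83 at 24 hpci in myd88+/+ (-2.89 ± 0.37) and from 324 and 306 to 101 and 87 in myd88-/- (-1.74 ± 0.37). Its paralogue rgs5b rose at 24 hpci in myd88-/-, from 48 and 55 to 193 and 229 (2.01 ± 0.34, adjusted p = 0.0019). At 1 hpci against UT, 3 of the 15 were called lower and 0 higher in myd88+/+ (3.73% and 5.01% of all genes). In myd88-/- 4 were called lower and 3 higher (4.55% and 5.90% of all genes). Those called higher included kcne4 (2.46 ± 0.24) and rgs5b (2.23 ± 0.34). notch3, the Notch receptor of mural cells, fell at 1 hpci from 776 and 792 to 130 and 432 in myd88+/+ (-1.72 ± 0.42, adjusted p = 0.031) and from 739 and 540 to 178 and 175 in myd88-/- (-1.83 ± 0.42, adjusted p = 0.020). tbx18, a transcription factor of epicardium and mural cells, fell at the same time from 336 and 286 to 51 and 71 in myd88+/+ (-2.35 ± 0.37) and from 269 and 263 to 51 and 37 in myd88-/- (-2.59 ± 0.37, adjusted p = 0.0019).

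Between the genotypes, 2 of the 15 tested pericyte genes were called in UT ventricles, beside 2.08% of all genes called in either direction. kcne4, a potassium channel subunit, was lower in myd88-/- (168 and 181 against 790 and 579, log2 fold change -1.95 ± 0.24 (SE), adjusted p = 0.0040). cd248a, an endosialin of perivascular cells, was higher (1080 and 1072 against 508 and 628, 0.93 ± 0.18, adjusted p = 0.034). Of the 49 tested genes of the 4 lists, limma called 0 between the genotypes at 1 or 24 hpci (0.120% and 0.0300% of all genes). There 5 and 4 had an unadjusted p below 0.05, beside 8.84% and 5.13% of all genes. In the interactions limma called 0, and 4 to 9 had an unadjusted p below 0.05, beside 5.95% to 8.56% of all genes.

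Of 6 tested genes of serum response factor and its MRTF co-activators, 3 were called lower and 1 higher at 24 hpci against UT in myd88+/+ (20.9% and 19.0% of all genes) and 1 lower and 1 higher in myd88-/- (14.5% and 15.6%). The list medians were -1.53 and -0.11 against -0.01 over all genes in each. srfb fell in both, from 180 and 194 to 25 and 58 (-2.26 ± 0.37 (SE)) and from 123 and 144 to 67 and 44 (-1.28 ± 0.37). mrtfaa rose in both, from 46 and 57 to 89 and 189 (1.32 ± 0.43) and from 71 and 49 to 205 and 169 (1.64 ± 0.43). srfa fell in myd88+/+, from 239 and 237 to 15 and 80 (-2.73 ± 0.65), and the value of 15 is from the shallow library. In myd88-/- srfa had 96 and 74 in UT and 113 and 48 at 24 hpci (-0.19 ± 0.65). At 1 hpci against UT limma called 0 of the 6 in either genotype. An unadjusted p below 0.05 was found for 1 in each, beside 24.7% of all genes in myd88+/+ and 25.9% in myd88-/-.

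Of 7 tested PDGF ligands and receptors other than pdgfrb, 0 were called lower and 1 higher at 1 hpci against UT in myd88+/+ (3.73% and 5.01% of all genes) and 3 lower and 1 higher in myd88-/- (4.55% and 5.90%). The list medians were -0.37 and -0.92. pdgfd, a ligand of PDGFRβ, rose at 1 hpci from 61 and 80 to 254 and 337 in myd88+/+ (2.05 ± 0.27 (SE), adjusted p = 0.0019) and from 47 and 47 to 400 and 439 in myd88-/- (3.13 ± 0.27, adjusted p = 7.6e-05). pdgfab rose from 1 to 24 hpci, from 7 and 33 to 185 and 156 in myd88+/+ (3.37 ± 0.56) and from 17 and 16 to 78 and 130 in myd88-/- (2.54 ± 0.56). pdgfbb, a B chain ligand that holds pericytes on vessels, fell in myd88-/- at 1 hpci, from 475 and 556 to 256 and 288 (-0.92 ± 0.21, adjusted p = 0.021).

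**Figure D4:**
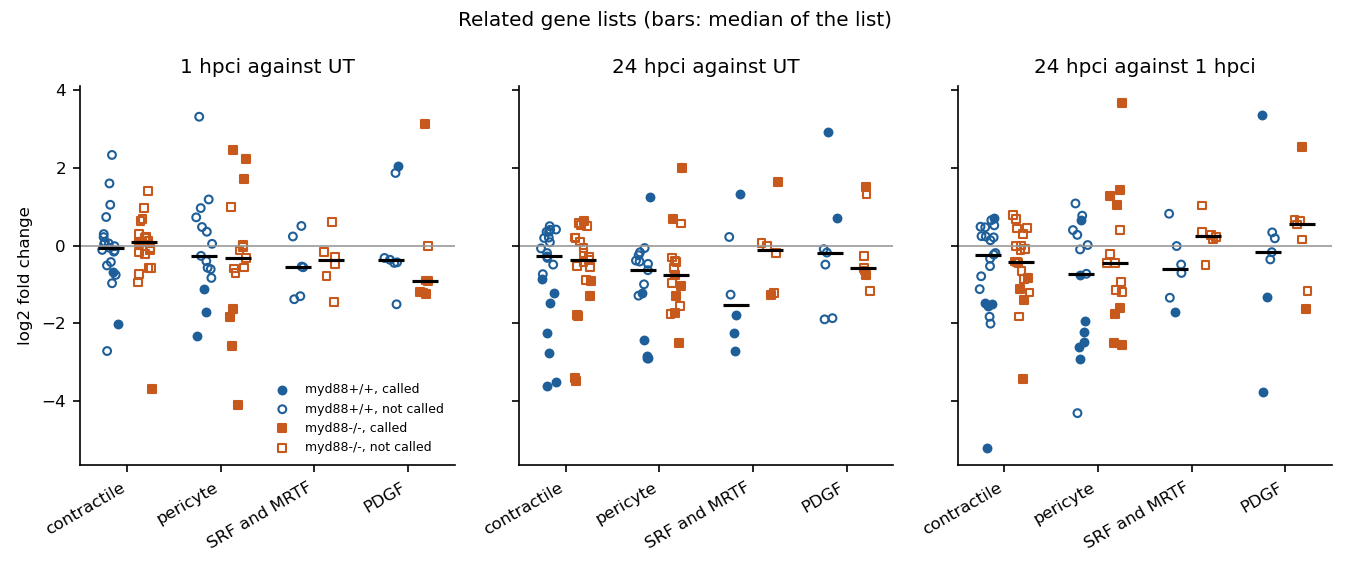
Log2 fold changes (y axis) between states of the tested genes of 4 related lists, the contractile apparatus (21 genes), pericyte genes (15), serum response factor with its MRTF co-activators (6) and PDGF ligands and receptors (7), in myd88+/+ (blue circles) and myd88-/- (orange squares), filled where called, with the list median as a bar. At 24 hpci against UT the medians of the contractile and pericyte lists lie below 0 in both genotypes.

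Markers of other tissues moved between the states as well. elnb, the elastin gene that marks the smooth muscle of the bulbus arteriosus, had 251 to 338 normalized counts in the 4 UT libraries, 5 to 74 at 1 hpci and 3 to 11 at 24 hpci, and was called lower in the injured tissue in all 4 comparisons with UT. The other 3 genes listed for the bulbus and present in the table did not all follow it. The elastic fibre genes fbln5 and mfap5 were called lower at 24 hpci against UT in both genotypes but not at 1 hpci, where mfap5 in myd88+/+ had 167 and 224 after 195 and 188 in UT. prrx1b, at 1 to 10 in UT, had 12 to 30 at 24 hpci and was not called. Its values were low in the UT libraries, where elnb was highest, but its highest value, 44, was in the library with skeletal muscle transcripts. Of the 4 listed genes, 1 was called lower at 1 hpci against UT in each genotype, beside 3.73% of all genes in myd88+/+ and 4.55% in myd88-/-. At 24 hpci against UT 3 were called lower in each, beside 20.9% and 14.5% of all genes. The summed level of the 4 genes was 519 to 656 in UT, 177 to 478 at 1 hpci and 58 to 120 at 24 hpci. Between the genotypes limma called 0 of the 4 in any state, beside 0.0300% to 2.08% of all genes. It gave 0 an unadjusted p below 0.05, beside 5.13% to 16.3% of all genes. Within the injured tissue, elnb was called lower at 24 than at 1 hpci in myd88+/+ (-2.61 ± 0.83 (SE)) and had -0.35 ± 0.83 in myd88-/-. In myd88+/+ elnb had 9 and 74 at 1 hpci and 3 and 4 at 24 hpci, values of a few reads at 24 hpci. The value of 74 is from the library with skeletal muscle transcripts, against 5 to 12 in the other libraries at 1 hpci. That library also had the highest values at 1 hpci of fbln5 (136 against 35 to 43), mfap5 (224 against 121 to 167) and prrx1b (44 against 0 to 1). How far the call of elnb rests on it was not tested. The 5 leukocyte markers summed to between 523 and 763 in UT and between 2498 and 3024 in 3 libraries at 24 hpci, with 5322 in the shallow library. The 8 cardiomyocyte markers summed to between 14340 and 16791 in UT and between 7533 and 8862 in those 3 libraries, with 17431 in the shallow library. At 24 hpci against UT, 1 of the 8 was called lower in myd88+/+ and 2 in myd88-/- (20.9% and 14.5% of all genes). The 7 fibroblast and epicardium markers, which include tbx18, summed to between 5173 and 6228 in UT and between 2882 and 4767 at 1 hpci. At 24 hpci they summed to between 4237 and 5065 in those 3 libraries, with 6609 in the shallow library. At 1 hpci against UT, 2 were called lower in myd88+/+ and 3 in myd88-/- (3.73% and 4.55% of all genes). At 24 hpci against UT, 3 were called lower and 1 higher in myd88+/+ (20.9% and 19.0% of all genes). In myd88-/- 2 were called lower and 1 higher there (14.5% and 15.6%). The 5 endothelial markers summed to between 4586 and 5564 in UT and between 3354 and 3934 at 24 hpci. In each genotype 2 were called lower, beside 20.9% of all genes in myd88+/+ and 14.5% in myd88-/-. The part of these shifts in the changes of the mural genes was not tested.

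Over the 12 libraries, on log2(normalized count + 1), the members formed no single pattern. myh11a and mylka were most alike (Pearson r = 0.90), followed by cnn1b and cspg4 (0.79) and pdgfrb and lmod1b (0.74), while acta2 and tagln had 0.55 and mylka and cspg4 -0.55. Among all other genes tested, those most like acta2 were sms (spermine synthase, r = 0.95), zgc:195050, slc43a1b, CU672227.1 and CR589876.1, the least of them at 0.94. Those most like pdgfrb were plxdc2 (0.94), pcdh18b, tbx1, znf1028 and ncam1a (0.89). These correlations describe 12 libraries that share 6 conditions, and the members themselves differ between the conditions.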

How the data were processed

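Per the labels and the methods of the study, RNA of 3 pooled ventricles or injured tissues was made into stranded mRNA libraries. Reads were trimmed (Trimmomatic 0.39), aligned to danRer11 (STAR 2.7.3a), cleaned of multi-mapping reads and duplicates (Picard 2.21.7) and counted per gene of Ensembl release 99 (featureCounts 1.6.5). The deposited values are a score: counts divided by the DESeq2 1.26.0 size factors of the authors and rounded to whole numbers. They are not read counts, so no count model was applied, and totals of 2998177 to 3747891 per library are after scaling. The depth of a library was read from the step between its low values.

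Genes with a mean above 5 were tested with limma 3.58.1 (trended variance, R 4.3.3) on log2(value + 1), as 6 condition means, which left 6 residual degrees of freedom, and p-values were adjusted over all genes tested. Figures were drawn with matplotlib 3.10.9. Where 1 library of a condition was left out, the lone library was assumed to vary like the others. The script was tested on simulated data. The labels do not say what a shared replicate number marks, and the number was left out of the model. Members and lists were chosen with earlier results of these data known. Of a related list, at most the 4 called genes with the largest change in a comparison could be named, and the genes most like acta2 and pdgfrb are the 5 with the highest Pearson correlation. Sequences of the members were not used here. Alternatives were other pseudocounts (0.5 and 5), filters (none and a mean above 20), scalings (TMM factors and quantile normalization), the compared groups alone, no variance trend, a replicate block and each library left out. Leaving out both libraries that stood apart and a crossed block were added after seeing the data.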

Additional observations from a re-analysis of the deposited data

Results flagged for a closer look

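For cspg4, both myd88+/+ libraries at 24 hpci (63 and 204 normalized counts) were below both UT libraries (270 and 213), and both myd88-/- libraries (155 and 173) were above theirs (86 and 85). The change from UT to 24 hpci was 2.002 ± 0.71 (SE) log2 units higher in myd88-/-, with an adjusted p of 0.49 by limma, so the genotypes are not shown to differ. lmod1b had the same arrangement at lower levels (10 and 16 against 31 and 60 in myd88+/+, 32 and 31 against 25 and 22 in myd88-/-). Its difference was 2.10 ± 1.14 (SE), with an adjusted p of 0.66 by limma. The values of 63 and 10 are from the shallow library, without which the difference of cspg4 was 1.16. Between the genotypes at 24 hpci, cspg4 had 0.52 with all libraries and -0.32 without the shallow library. How many of all genes tested show this arrangement was not counted.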

How the results depend on the processing

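The 18 calls on single members kept their direction under every alternative, and 4 also stayed past the threshold in each: acta2 at 24 hpci against UT in myd88+/+, and mylka from 1 to 24 hpci in both genotypes and at 1 hpci against UT in myd88-/-. Counts of members called moved past 1.5 times as follows, and the cause was not tested. Quantile normalization left 1 member at 1 hpci against UT in myd88-/-, with 1930 of all genes called against 1739 in the main fit. Fits to the compared groups alone have fewer residual degrees of freedom. In myd88+/+ they called 0 members at 1 hpci against UT and 1 from 1 to 24 hpci. Over all genes tested they called 0 and 1902 there, against 1453 and 5793 in the main fit. At 24 hpci against UT in myd88-/- they called 2 members, and 6124 of all genes against 5014 in the main fit. Without the variance trend 3 were called from 1 to 24 hpci in myd88+/+ and 0 between the genotypes in UT. Over all genes that setting called 5459 and 206, against 5793 and 347 in the main fit. Deviations of same-numbered libraries correlated between 0.16 and 0.28 in the 3 pairs of conditions within myd88-/-, at 0.0081, 0.046 and 0.28 within myd88+/+, and below 0 in all 9 pairs across the genotypes, with 2 numbers in each. A replicate block called 0 members between the genotypes in UT, and 218 of all genes against 347 in the main fit. It also ended the call of cnn1b from 1 to 24 hpci in myd88+/+ (limma adjusted p = 0.053), which TMM factors also ended (adjusted p = 0.0501). The block changed no other member's call. A crossed block, added after seeing the data, called 0 members between the genotypes at 1 or 24 hpci, beside 54 and 5 of all genes. Without both libraries that stood apart 1 interaction was called for UT to 1 hpci, that of mylka.

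Leaving out 1 library at a time, the members called numbered 1 to 3 at 1 hpci against UT, 2 to 5 at 24 hpci against UT and 2 to 6 from 1 to 24 hpci in myd88+/+. In myd88-/- they numbered 1 to 2, 0 to 0 and 1 to 3. Between the genotypes they were 0 to 0 in UT and 0 to 1 at 1 hpci, and 0 to 1 for the interaction of UT to 24 hpci.

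Directions turned only for changes that were not called. A pseudocount of 5 gave -0.020 for lmod1b from 1 to 24 hpci in myd88+/+, and acta2 between the genotypes in UT was 0.016 with TMM factors and 0.12 with quantile normalization. The median of all genes moved by at most 0.09 under these scalings. Without both libraries that stood apart, acta2 at 1 hpci against UT and pdgfrb from 1 to 24 hpci in myd88+/+ were 0.11 and 0.47. Between the genotypes that setting gave 0.36 for myh11a and 0.056 for lmod1b at 1 hpci, and 0.31 for tagln, -0.12 for myh11a and -0.32 for cspg4 at 24 hpci. With 1 library left out, the changes of myd88+/+ at 1 hpci against UT ran from -0.50 to 0.11 for acta2, -0.29 to 0.11 for tagln and -0.66 to 0.64 for pdgfrb, and from 1 to 24 hpci they ran from -1.04 to 0.26 for pdgfrb and -1.23 to 1.45 for lmod1b. Those of myd88-/- ran from -0.66 to 0.0065 for acta2 at 1 hpci against UT, from -0.031 to 0.50 for myh11a, -0.14 to 0.054 for mylka and -0.50 to 0.081 for pdgfrb at 24 hpci against UT, and from -0.14 to 0.0096 for tagln from 1 to 24 hpci. Between the genotypes they ran from -0.11 to 0.082 for acta2 and -0.17 to 0.41 for pdgfrb in UT. At 1 hpci the ranges were -0.48 to 0.19 for acta2, -0.45 to 0.36 for myh11a, -0.14 to 0.65 for mylka, -0.094 to 1.06 for cspg4 and -2.62 to 0.056 for lmod1b, and at 24 hpci -0.59 to 0.31 for tagln, -0.12 to 0.41 for myh11a and -0.32 to 1.36 for cspg4. Depth limits lmod1b, whose lowest values stand for a few reads. Outside the members, it also limits kcnj8, smtnl1, elnb and srfa in the shallow library.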
